A study of Mus musculus with 10 samples.

Results

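The 9 transcription factors described here set the identity of epidermal and hair follicle cells. They are Trp63, Tfap2a, Tfap2c, Klf4, Klf5, Sox9, Lhx2, Grhl3 and Ovol1. They were chosen by gene symbol from the 15997 genes listed in both expression tables of the series, and all 9 were listed in both. ASZ001 is a mouse basal cell carcinoma (BCC) cell line that is resistant to Smoothened inhibition. The cells were serum-starved and treated for 24 h with 10 µM SB431542, an inhibitor of the TGFß receptor kinase ALK5, or with 20 µM T-5224, an inhibitor of AP-1, and RNA was sequenced. There were 3 DMSO and 3 SB431542 libraries in the first experiment and 2 DMSO and 2 T-5224 libraries in the second. All 10 libraries come from cultures of this 1 line, which the submitters call biological replicates, and the DMSO libraries are low-serum cultures too. Since the tables were normalized separately, all comparisons stay within a table.

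These factors act in layers. p63, with the AP-2 proteins, commits surface ectoderm to a stratified epithelium and keeps basal keratinocytes basal. Sox9 and Lhx2 mark the follicle stem cell and outer root sheath programs, and Klf4, Grhl3 and Ovol1 act as keratinocytes leave the basal layer and build the barrier. BCC is a keratinocyte tumor with features of the embryonic follicle, in which Sox9 lies downstream of Hedgehog signaling.

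Levels are given as RPKM, reads per kilobase of transcript scaled to sequencing depth. A fold change is the difference of means on log2(RPKM + 0.5), treated minus DMSO, which understates the change of low genes. A gene passed with a Benjamini-Hochberg adjusted p under 0.05 in limma over all genes tested, that is, those with a mean of at least 1 RPKM in the table. A 2-fold call also needed a log2 fold change beyond 1. With 3 against 3 libraries a two-sided exact permutation test of a single gene cannot go below p = 0.1. With 2 against 2 it cannot go below 0.333. The tests given therefore combine the spread of each gene with that of the fit across all genes.

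The libraries held between 31.8 and 51.3 M reads, as worked out from the steps between low RPKM values. DMSO replicate 1 of the SB431542 experiment stood apart. The SD of its genes from the group mean was 0.272 on the log2 scale, against 0.161 and 0.190 in the other 2 DMSO libraries and 0.123 to 0.126 with SB431542, and its ribosomal transcript Rn45s was at 770 RPKM against 1868 to 2229 RPKM in the other 5 libraries. The 2 T-5224 libraries had Rn45s at 1862 and 5184 RPKM, and their DMSO libraries at 3401 and 3473 RPKM. All 9 keratinocyte markers were listed, and their summed level was 11316 to 11544 RPKM in DMSO of the SB431542 experiment and 15708 to 16423 RPKM in DMSO of the T-5224 experiment. It was 7955 to 8532 RPKM with SB431542 and 2782 to 2921 RPKM with T-5224. Most of the sum in DMSO was Krt5 and Krt14, so it does not speak for each marker. With SB431542, 4 of the 9 passed as lower (44.4%, against 10.0% of all genes) and 2, Krt15 and Epcam, as higher (22.2%, against 10.2%). With T-5224, 8 passed as lower (88.9%, against 39.4%) and 1 as higher (11.1%, against 40.3%). The fibroblast list summed to at most 4.14 RPKM in any library, with Lum not listed, nor Thy1 in the T-5224 experiment. The melanocyte list summed to 6.03 to 12.7 RPKM, nearly all of it Mitf. Tyrp1, Mlana and Sox10 were not listed, nor Dct and Tyr in the T-5224 experiment. The genes listed for the immune and endothelial lists also differed between the experiments, so such sums are comparable only within an experiment. The immune list, mostly Cd68, summed to 37.2 to 37.7 RPKM with T-5224 and 16.8 to 18.7 RPKM in its DMSO libraries, and to 8.02 to 8.69 RPKM with SB431542 and 7.30 to 10.8 RPKM in DMSO. The endothelial list, mostly Pecam1, summed to 4.13 to 4.67 RPKM with T-5224 and 10.9 to 11.97 RPKM in DMSO, and to 2.74 to 2.99 RPKM with SB431542 and 5.30 to 6.74 RPKM in DMSO. The part of these lists in the results below was not tested, and in bulk RNA fewer cells of a type and less RNA per cell cannot be told apart.

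In DMSO the factors fell into an abundant group and a low group. In the T-5224 experiment the order was Sox9 at 125 ± 3.52 RPKM (SD, n = 2), Trp63 at 74.9 ± 1.89, Klf5 at 69.1 ± 2.81, Klf4 at 51.0 ± 0.0559 and Tfap2a at 45.8 ± 0.841 RPKM. Below these came Ovol1 at 7.72 ± 0.211, Tfap2c at 5.36 ± 0.441, Grhl3 at 0.497 ± 0.0431 and Lhx2 at 0.266 ± 0.0636 RPKM. No neighbours in this order overlapped between libraries. In the SB431542 experiment Sox9 was at 93.8 ± 14.9 RPKM (SD, n = 3) and Trp63 at 81.4 ± 13.2 RPKM, and their libraries overlapped. Klf4 followed at 66.0 ± 3.95 RPKM, then Tfap2a at 50.6 ± 9.71 and Klf5 at 47.6 ± 14.8 RPKM, which overlapped as well. Ovol1 was at 5.91 ± 0.236, Tfap2c at 5.28 ± 0.312, Grhl3 at 1.65 ± 0.176 and Lhx2 at 1.07 ± 0.261 RPKM, with no overlap between neighbours. The same 5 genes were thus the abundant ones in both sets of DMSO cultures.

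**Figure D1:**
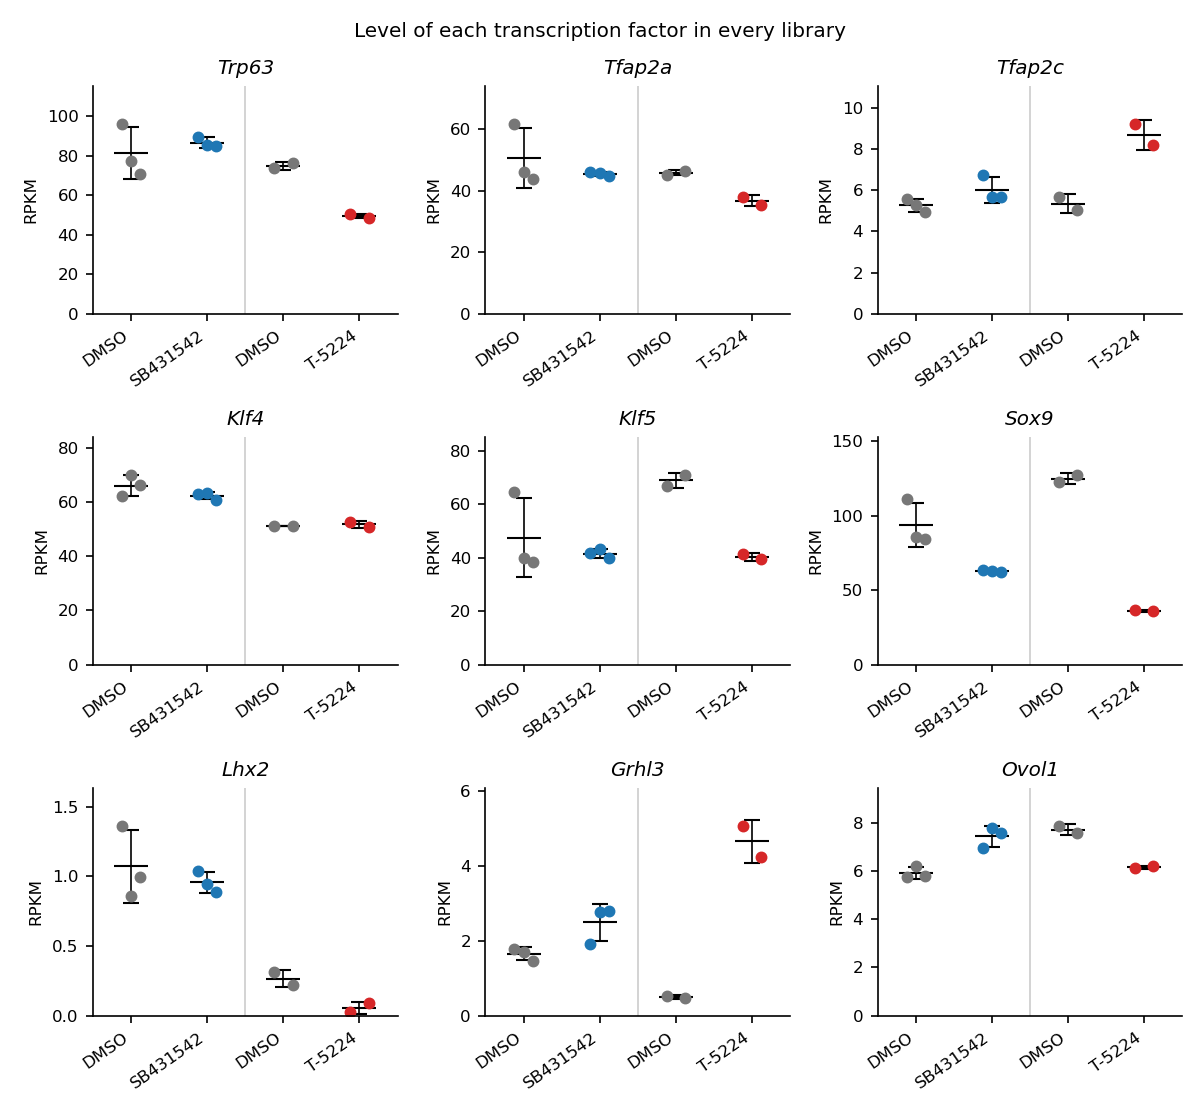
RPKM (vertical axes, from 0) of each factor in all 10 libraries, with DMSO in grey, SB431542 in blue and T-5224 in red; black lines are the group mean and SD (n = 3 left of the grey line, n = 2 right of it). Sox9 was lower with each inhibitor, and Grhl3 rose from 0.497 to 4.66 RPKM with T-5224. The first DMSO library lay highest of the 6 libraries of the SB431542 experiment for Trp63, Tfap2a, Klf5, Sox9 and Lhx2.

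Promoter sequence was at hand for 4 of the 9 genes, Klf4, Grhl3, Tfap2a and Lhx2, as 6 windows in the RefSeq set of GRCm38.p6. The 250 bases before the start of Klf4 and of Grhl3 are shown because, of the 4, Grhl3 had the highest rise with T-5224 and Klf4 was the tested gene with no change that passed. Both are on the minus strand and are written 5′ to 3′, and capitals mark matches to the motifs listed after them.
Klf4, chr4:55532476-55532725: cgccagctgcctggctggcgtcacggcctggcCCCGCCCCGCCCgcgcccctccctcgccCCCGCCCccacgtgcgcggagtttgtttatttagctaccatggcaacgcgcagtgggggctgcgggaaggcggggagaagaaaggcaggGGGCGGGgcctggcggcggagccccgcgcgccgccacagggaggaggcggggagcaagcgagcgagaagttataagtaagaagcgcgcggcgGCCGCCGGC
Grhl3, chr4:135573633-135573882: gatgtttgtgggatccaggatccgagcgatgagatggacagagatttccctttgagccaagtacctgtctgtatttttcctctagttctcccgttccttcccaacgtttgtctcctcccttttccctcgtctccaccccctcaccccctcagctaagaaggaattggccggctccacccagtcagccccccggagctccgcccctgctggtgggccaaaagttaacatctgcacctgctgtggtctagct
The motifs, read on both strands, were the AP-1 site TGACTCA, the CRE TGACGTCA, the SMAD palindrome GTCTAGAC, the KLF GC box GGGCGGG, the KLF box CCACACCC, the AP-2 palindrome GCCNNNGGC, the Grainyhead-like site AACCNGTT and the LIM homeodomain core TAATTA. The Klf4 window held 4 GC boxes, of which 2 overlap each other, and 1 AP-2 palindrome that ends at the start site. The Grhl3 window held no match to any of the 8. Of all 32851 windows of the set, 23.4% held the GC box and 13.7% the AP-2 palindrome. The first Lhx2 window held 4 GC boxes, the second held 2 AP-2 palindromes, and 1 of the 2 Tfap2a windows held a single TAATTA, which 4.84% of all windows hold. The AP-1 site was in none of the 6 windows and in 4.46% of all windows. The CRE (1.55% of all windows), the SMAD palindrome (0.167%), the KLF box CCACACCC (3.2%) and the Grainyhead-like site (1.79%) had no match in the 6 either. An absent match says only that these letters are not in these windows.

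With T-5224, 7 of the 8 factors that could be tested passed. Grhl3 and Tfap2c were higher, Sox9, Klf5, Trp63, Tfap2a and Ovol1 were lower, and Klf4 did not pass. Of all 10809 genes tested, 40.3% passed as higher and 39.4% as lower, so passing was common. The libraries of 7 of the 8 factors did not overlap between T-5224 and DMSO, as for 89.7% of all genes. A 2-fold call was met by Grhl3 as higher, against 10.4% of all genes, and by Sox9 as lower, against 10.6%. The 8 factors had a median log2 fold change of -0.31, against 0.0034 over all genes tested. Grhl3 was tested only because of its level in the T-5224 libraries, since its DMSO libraries lie under 1 RPKM.

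With SB431542, of the 9 factors, all of which were tested, Ovol1 passed as higher and Sox9 as lower, and 10.2% and 10.0% of all 10842 genes passed in these directions. No factor met the 2-fold call, which 0.231% of all genes met as higher and 0.581% as lower. Libraries did not overlap for 4 factors, Sox9, Tfap2c, Ovol1 and Grhl3, and for 45.1% of all genes. The 9 factors had a median log2 fold change of -0.083, against 0.0082 over all genes tested.

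**Figure D2:**
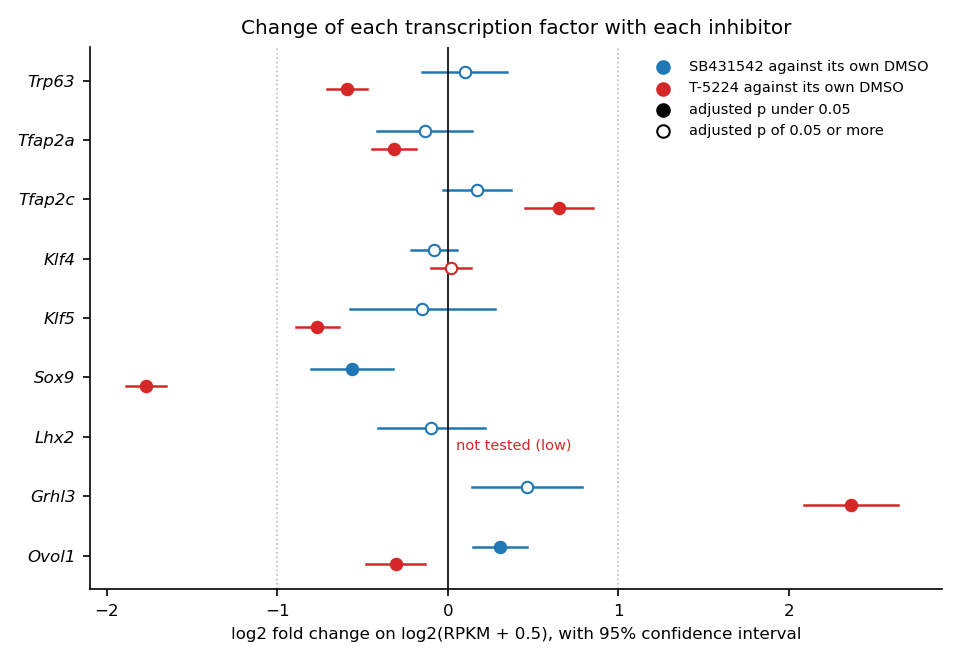
Log2 fold change on log2(RPKM + 0.5) (horizontal axis) of each factor with its 95% confidence interval, for SB431542 (blue, n = 3 against 3) and T-5224 (red, n = 2 against 2); filled points passed, and dotted lines mark the 2-fold limit. Grhl3 at 2.37 and Sox9 at -1.77 with T-5224 lie beyond the dotted lines, and Lhx2 was too low to be tested with T-5224.

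Trp63 encodes p63, the factor that stratified epithelia depend on (mm9 chr16:25683849-25892188, plus strand). With T-5224 it was at 50.3 and 48.7 RPKM, against 73.6 and 76.2 RPKM in DMSO. Both treated libraries lay below both DMSO libraries. The log2 fold change was -0.59 (SE 0.0535, adjusted p = 1.03e-06), which left 66.1% of the DMSO level. With SB431542 Trp63 was at 89.7, 85.3 and 85.0 RPKM, and the DMSO libraries 1 to 3 were at 96.1, 77.5 and 70.6 RPKM. The treated values lay inside the range of DMSO, and the change of 0.10 had a 95% interval from -0.15 to 0.35 (adjusted p = 0.533). The first DMSO library was the highest of all 6. Without it the log2 fold change was 0.23 (adjusted p = 0.00616), and the gene passed as higher.

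The AP-2 factors went in opposite directions with T-5224. Tfap2a (chr13:40811044-40829192, minus strand) was at 38.0 and 35.5 RPKM with T-5224 and at 45.2 and 46.4 RPKM in DMSO. Tfap2c (chr2:172375093-172384122, plus strand) was at 9.23 and 8.19 RPKM with T-5224 and at 5.67 and 5.05 RPKM in DMSO. No libraries overlapped for either gene. Tfap2a fell by 0.32 on the log2 scale (SE 0.0582, adjusted p = 0.000384) and Tfap2c rose by 0.65 (SE 0.0913, adjusted p = 4.29e-05). The ratio of Tfap2a to Tfap2c RPKM was 7.97 and 9.19 in the DMSO libraries and 4.12 and 4.33 in the T-5224 libraries. Tfap2a stayed the more abundant of the pair in every library.

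With SB431542, Tfap2a was at 46.0, 45.7 and 44.8 RPKM, against 61.8, 46.2 and 43.9 RPKM in DMSO. The DMSO range covered all treated libraries, and the change was -0.14 (95% interval -0.42 to 0.14, adjusted p = 0.448). Without DMSO replicate 1 it was 0.014 (adjusted p = 0.794). Tfap2c was at 6.73, 5.66 and 5.67 RPKM with SB431542 and at 5.58, 5.30 and 4.96 RPKM in DMSO. All 3 treated libraries lay above DMSO, but the change of 0.17 did not pass (95% interval -0.029 to 0.37, adjusted p = 0.196). Tfap2a overlaps an antisense gene, Gm16989, in the mm9 annotation, as Trp63 does a U6 gene and Lhx2 does Gm13584. Whether strand was used in counting is not given in the sources used here, so reads of such pairs may not be told apart.

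The Krüppel-like factors Klf4 and Klf5 have contrasting roles in epidermis, Klf4 in barrier formation above the basal layer and Klf5 in proliferating basal cells. Klf4 (mm9 chr4:55540013-55545347, minus strand) was at 52.6 and 50.7 RPKM with T-5224 and at 51.0 and 51.0 RPKM in DMSO. The DMSO libraries lay between the treated ones, and the change of 0.018 had a 95% interval from -0.0998 to 0.14 (adjusted p = 0.765). Its sign depended on the setting, and was negative after quantile normalization (-0.077) and without T-5224 replicate 1 (-0.0082), again with no pass. Klf5 (chr14:99697910-99712624, plus strand) was at 41.4 and 39.4 RPKM with T-5224 and at 67.1 and 71.1 RPKM in DMSO. It fell by 0.77 on the log2 scale (SE 0.0570, adjusted p = 1.99e-07), to 58.5% of the DMSO level. In this experiment Klf5 was the more abundant of the pair in DMSO and Klf4 with T-5224. The ratio of Klf4 to Klf5 RPKM was 0.761 and 0.717 in DMSO and 1.27 and 1.29 with T-5224. In the SB431542 experiment it was 0.960, 1.76 and 1.73 in DMSO and 1.51, 1.46 and 1.52 with SB431542.

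With SB431542, Klf4 was at 62.9, 63.1 and 60.7 RPKM, against 62.0, 69.9 and 66.1 RPKM in DMSO. These ranges overlapped, and the change was -0.083 (95% interval -0.22 to 0.053, adjusted p = 0.343). Without DMSO replicate 1 it was -0.13 and passed as lower (adjusted p = 0.0316). Klf5 was at 41.6, 43.3 and 40.0 RPKM with SB431542 and at 64.6, 39.8 and 38.3 RPKM in DMSO. The spread of the DMSO libraries came from replicate 1 and gave the widest interval of the 9 factors, from -0.58 to 0.28 around -0.15 (adjusted p = 0.594). Without replicate 1 the change was 0.091 (adjusted p = 0.137), of opposite sign.

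Sox9, the follicle stem cell and outer root sheath factor (mm9 chr11:112643538-112649074, plus strand), was lower with each inhibitor. With T-5224 it was at 36.6 and 35.9 RPKM, against 122.5 and 127.5 RPKM in DMSO. The groups were far apart and each was tight. The log2 fold change was -1.77 (SE 0.0528, adjusted p = 9.89e-11), so DMSO was 3.45-fold above T-5224 in RPKM. With SB431542 Sox9 was at 63.6, 62.9 and 62.0 RPKM, and in DMSO at 111, 86.1 and 84.4 RPKM. The treated libraries all lay below DMSO, and the change was -0.56 (SE 0.103, adjusted p = 0.0109), to 67.0% of the DMSO level. Without the high DMSO replicate 1 it was -0.44 (adjusted p = 3.85e-05). The call was lost without SB431542 replicate 2 (adjusted p = 0.0507) or 3 (0.0562), with changes of -0.56 and -0.55.

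Sox9 was also lower relative to Trp63 in the treated libraries. The ratio of Sox9 to Trp63 RPKM was 1.15, 1.11 and 1.19 in DMSO of the SB431542 experiment and 0.709, 0.738 and 0.729 with SB431542. With T-5224 this ratio was 0.729 and 0.737, next to 1.67 and 1.67 in its DMSO libraries. Sox9 was the more abundant of the pair in every DMSO library and Trp63 in every treated one, and DMSO replicate 1, in which both genes were highest, did not stand apart in this ratio.

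Lhx2, a LIM homeodomain factor of follicle stem cells (mm9 chr2:38194801-38225253, plus strand), was the lowest of the 9 in DMSO. With T-5224 it was at 0.025 and 0.088 RPKM, which is about 3 and 10 reads, and in DMSO at 0.311 and 0.221 RPKM, about 23 and 20 reads. Both treated libraries lay below DMSO, but the gene was under the limit of 1 RPKM and has no call. With no limit on the level the change was -0.46 (SE 0.0903, adjusted p = 0.0106 over 16719 genes), on a scale where a pseudocount of 0.5 exceeds every value of the gene. With SB431542 Lhx2 was at 1.04, 0.947 and 0.885 RPKM, and in DMSO at 1.36, 0.856 and 0.996 RPKM. These overlapped, and the change was -0.10 (95% interval -0.41 to 0.22, adjusted p = 0.634). DMSO replicate 1 was the highest, and without it Lhx2 was under the limit of 1 RPKM and was not tested.

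Grhl3, the Grainyhead-like factor of barrier formation and wound closure (mm9 chr4:135097803-135129545, minus strand), had the highest rise of the 9 with T-5224. It was at 5.07 and 4.24 RPKM with T-5224, about 725 and 580 reads, and at 0.527 and 0.466 RPKM in DMSO, about 47 and 51 reads. The treated mean was 9.38-fold that of DMSO. The log2 fold change was 2.37 (SE 0.125, adjusted p = 1.09e-08), and between 1.91 and 2.99 under the other settings. With SB431542 Grhl3 was at 1.93, 2.77 and 2.80 RPKM, and in DMSO at 1.79, 1.71 and 1.46 RPKM. All treated libraries lay above DMSO, with SB431542 replicate 1 close to it. The change of 0.47 lay just outside the threshold (SE 0.138, adjusted p = 0.0517). It passed without DMSO replicate 1 (0.51, adjusted p = 0.024) or SB431542 replicate 1 (0.61, adjusted p = 0.0253).

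Ovol1, a zinc finger repressor that acts as keratinocytes stop dividing (mm9 chr19:5549137-5560575, minus strand), passed in opposite directions in the 2 experiments. With SB431542 it was at 6.95, 7.80 and 7.58 RPKM, against 5.75, 6.18 and 5.80 RPKM in DMSO. The treated libraries all lay above DMSO. The log2 fold change was 0.31 (SE 0.0676, adjusted p = 0.0204), a mean of 126% of DMSO. The call was lost without DMSO replicate 3 (adjusted p = 0.0519) or SB431542 replicate 2 (0.0926) or 3 (0.0874), with changes between 0.28 and 0.30. With T-5224 Ovol1 was at 6.10 and 6.19 RPKM and in DMSO at 7.87 and 7.57 RPKM. Both treated libraries lay below DMSO, and the change was -0.31 (SE 0.0785, adjusted p = 0.00373), to 79.7% of DMSO. The difference between the inhibitors was not tested, since the tables were normalized separately.

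**Figure D3:**
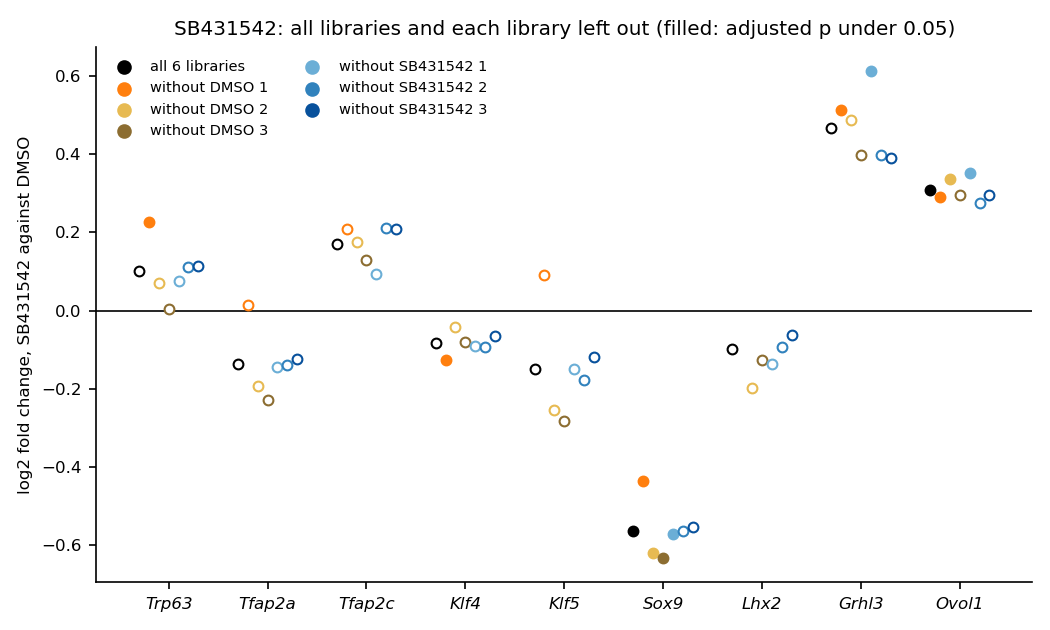
Log2 fold change with SB431542 (vertical axis) of each factor with all 6 libraries (black) and with each library left out (colors). Filled points passed. Lhx2 has no point without DMSO replicate 1, since it was then too low to be tested. Leaving out DMSO replicate 1 (orange) moved Trp63 to 0.23 and turned the sign of Tfap2a and Klf5, while Sox9 stayed between -0.63 and -0.44 and Ovol1 between 0.28 and 0.35.

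Like the 9 factors, the gene lists that follow were chosen with earlier results of these data known. Their shares beside those of all genes are therefore descriptive only. The relatives of the 9 factors in the p53, Klf, Tfap2, Ovol, Grhl, Sox and Lhx families numbered 49, of which 22 were tested with T-5224. As lower, 10 passed (45.5%, near the 39.4% of all genes), and as higher 4 (18.2%, against 40.3%), with a median log2 fold change of -0.14. The p53 relative Trp73 was at 6.64 to 7.85 RPKM in DMSO and at 0.020 to 0.068 RPKM with T-5224 (log2 fold change -3.83, adjusted p = 2.65e-10). Sox6, Sox2 and Sox4, of the Sox family of progenitor cell factors, fell as well. Sox6 went from 7.01 ± 0.331 to 1.75 ± 0.211 RPKM (log2 fold change -1.74, adjusted p = 2.88e-08), and Sox2 from 19.1 ± 0.0170 to 6.09 ± 0.0205 RPKM (log2 fold change -1.57, adjusted p = 2.38e-09). Sox4 went from 163 ± 1.58 to 62.5 ± 0.162 RPKM (log2 fold change -1.37, adjusted p = 4.81e-10). The 4 that passed as higher, named here after their values were seen, were Trp53 (log2 fold change 1.33), Klf16 (0.79), Sox15 (0.75) and Klf11 (0.49), and Sox15 was tested only because of its treated level.

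With SB431542, 23 relatives were tested, 4 passed as higher (17.4%, against 10.2% of all genes) and 5 as lower (21.7%, against 10.0%), and the median was -0.10. Klf10, a gene induced early by TGFß, fell from 26.8 ± 0.984 to 14.3 ± 0.712 RPKM (SD, n = 3; log2 fold change -0.88, adjusted p = 0.000219). Sox6 fell by 0.77 on the log2 scale (adjusted p = 0.000685) and Sox4 by 0.64 (adjusted p = 0.000973). Sox15 rose from 0.874 ± 0.254 to 1.92 ± 0.414 RPKM (log2 fold change 0.82, adjusted p = 0.02), but its DMSO mean is under 1 RPKM and it was tested only because of its treated level. The same holds for Klf15, which also passed as higher, at a mean of 0.722 RPKM in DMSO and 1.28 RPKM with SB431542. The number lower was 8 without DMSO replicate 1, and the number higher was 2 without DMSO replicate 3 and 1, 0 and 1 without SB431542 replicates 1, 2 and 3.

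Of 23 other epidermal transcription factors, 19 were tested with T-5224 and all passed, 8 as higher (42.1%, near the 40.3% of all genes) and 11 as lower (57.9%, against 39.4%), with a median of -0.55. Without T-5224 replicate 1, 4 passed as higher. Maf, which takes part in keratinocyte differentiation, fell from 22.3 ± 0.675 to 2.49 ± 0.106 RPKM (log2 fold change -2.93, adjusted p = 4.26e-11). Dlx3, a homeobox factor of suprabasal cells and hair, fell from 30.5 ± 1.95 to 3.03 ± 0.451 RPKM (log2 fold change -3.14, adjusted p = 1.03e-10). Cebpb, a bZIP factor of differentiating keratinocytes, rose from 45.8 ± 1.54 to 312 ± 1.13 RPKM (log2 fold change 2.75, adjusted p = 3.29e-12). With SB431542, 18 were tested, 1 passed as higher (5.56%, against 10.2% of all genes) and 4 as lower (22.2%, against 10.0%), with a median of -0.11. Foxn1, the gene of the nude phenotype, rose from 1.23 ± 0.0741 to 2.96 ± 0.256 RPKM (log2 fold change 0.996, adjusted p = 0.000685). The vitamin D receptor gene Vdr fell by 0.53 on the log2 scale (adjusted p = 0.00113) and the Notch target Hes1 by 0.52 (adjusted p = 0.00178). Without DMSO replicate 1, 2 genes of the list passed as higher.

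Of 23 other hair follicle transcription factors, 20 were tested with T-5224, and 16 passed as lower (80% of those tested, against 39.4% of all genes) and 2 as higher (10%, against 40.3%). The median was -1.19, and 12 met the 2-fold call as lower, which 10.6% of all genes met. Without T-5224 replicate 1, 1 passed as higher. Dlx3 is in this list as well. Tcf7l1, a TCF of follicle stem cells, fell from 24.5 ± 1.01 to 3.95 ± 0.0502 RPKM (log2 fold change -2.49, adjusted p = 8.68e-11). Hoxc13, which drives hair keratin genes, fell from 24.8 ± 2.88 to 4.33 ± 0.878 RPKM (log2 fold change -2.40, adjusted p = 5.68e-09). Nfatc1, a factor of quiescent bulge stem cells, fell from 13.4 ± 0.371 to 3.55 ± 0.0615 RPKM (log2 fold change -1.78, adjusted p = 2.41e-09). With SB431542, 20 were tested, 6 passed as lower (30%, against 10.0% of all genes) and 1, Foxn1, as higher (5%, against 10.2%), with a median of -0.19. Tcf7l1 fell from 18.5 ± 3.93 to 11.2 ± 0.513 RPKM (log2 fold change -0.68, adjusted p = 0.0144), and the Wnt effector Lef1 from 2.38 ± 0.678 to 1.30 ± 0.293 RPKM (log2 fold change -0.66, adjusted p = 0.048). Vdr is shared with the epidermal list. The number lower was 1 without any of SB431542 replicates 1, 2 or 3, and the number higher was 3 without DMSO replicate 1.

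Genes known as targets of p63 were mostly lower. The list does not separate targets that p63 activates from those that it represses. Its counts and medians are therefore no measure of p63 activity, which was not tested. With T-5224, 21 of 23 were tested, 17 passed as lower (81%, against 39.4% of all genes) and 3 as higher (14.3%, against 40.3%), with a median of -0.93. The 2-fold call as lower was met by 9, and by 10.6% of all genes. The basal keratin genes Krt5 and Krt14 fell from 6002 ± 121 to 589 ± 13.6 RPKM (log2 fold change -3.35, adjusted p = 1.06e-12) and from 5708 ± 339 to 809 ± 24.1 RPKM (log2 fold change -2.82, adjusted p = 8.73e-12). Dst, which holds the hemidesmosome protein BPAG1, fell from 252 ± 23.6 to 47.5 ± 2.08 RPKM (log2 fold change -2.39, adjusted p = 6.04e-11). Dlx3 counts here too, and Jag1 and Sfn were among the genes that passed as higher. With SB431542, 21 were tested, 12 passed as lower (57.1%, against 10.0% of all genes) and 2 as higher (9.52%, against 10.2%), with a median of -0.26. Trp63 itself did not pass with all libraries, but passed as higher without DMSO replicate 1 (log2 fold change 0.23, adjusted p = 0.00616). Krt14 fell from 4076 ± 187 to 2320 ± 77.2 RPKM (log2 fold change -0.81, adjusted p = 0.000402) and Sfn, the 14-3-3σ gene, from 176 ± 7.55 to 102 ± 3.999 RPKM (log2 fold change -0.78, adjusted p = 0.000274). Cdkn1a, the p21 gene, fell by 0.63 on the log2 scale (adjusted p = 0.00526) and the receptor gene Fgfr2 by 0.63 (adjusted p = 0.000994). The number lower was 7 without SB431542 replicate 2 or 3, and the number higher was 1 without DMSO replicate 2 or SB431542 replicate 1 and 0 without SB431542 replicate 2 or 3.

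Terminal differentiation genes, which build the cornified layer and its junctions, were split. Of 34, 13 were tested with T-5224, 8 passed as lower (61.5%, against 39.4% of all genes) and 4 as higher (30.8%, against 40.3%), and the median was -0.67. Cdsn, the corneodesmosin gene, rose from 0.666 ± 0.139 to 6.80 ± 0.697 RPKM (log2 fold change 2.65, adjusted p = 3.84e-09), and the tight junction gene Cldn4 from 4.94 ± 0.0141 to 22.6 ± 2.85 RPKM (log2 fold change 2.08, adjusted p = 1.75e-09). Sbsn, which encodes suprabasin, fell from 187 ± 5.22 to 32.3 ± 1.52 RPKM (log2 fold change -2.51, adjusted p = 1.18e-11), and Ppl, the periplakin gene, from 13.1 ± 0.117 to 3.02 ± 0.0488 RPKM (log2 fold change -1.96, adjusted p = 1.24e-09). Cdsn, as Grhl3, was tested only because of its treated level. With SB431542, 11 were tested, 5 passed as higher (45.5%, against 10.2% of all genes) and 1 as lower (9.09%, against 10.0%), with a median of 0.30. The other 5 did not pass, Krt10 among them (log2 fold change 0.075, adjusted p = 0.65). A further 20 were listed but under the limit of 1 RPKM, among them Krt1, Lor, Ivl, Tgm1 and Casp14. The counts and the median leave these out. Among the 5 that passed as higher, Tgm5, at a mean of 0.918 RPKM in DMSO and 1.30 RPKM with SB431542, was tested only because of its treated level. Sprr1a, a cornified envelope precursor gene, rose from 3.36 ± 1.22 to 7.64 ± 0.795 RPKM (log2 fold change 1.12, adjusted p = 0.0114), the protease inhibitor gene Cst6 from 3.24 ± 0.0869 to 5.23 ± 0.367 RPKM (log2 fold change 0.61, adjusted p = 0.00214), and the envoplakin gene Evpl from 23.6 ± 1.06 to 30.3 ± 0.763 RPKM (log2 fold change 0.35, adjusted p = 0.00614). Cldn4 fell by 0.69 on the log2 scale (adjusted p = 0.00649). The number higher was 2, 2 and 3 without SB431542 replicates 1, 2 and 3.

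**Figure D4:**
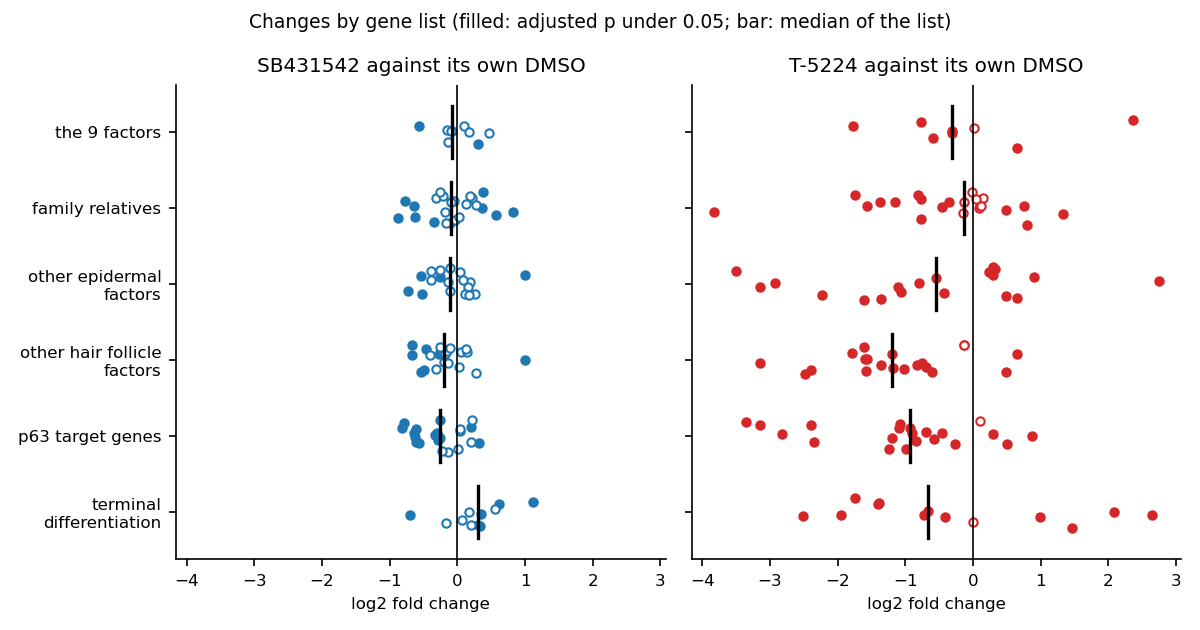
Log2 fold change (horizontal axes) of the tested genes of each list with SB431542 (left, blue) and T-5224 (right, red); filled points passed and the bar is the median. The follicle factors have the lowest median with T-5224, -1.19, and the terminal differentiation genes the highest with SB431542, 0.30.

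For the 2 factors with the largest changes, the genes most like them were sought among the 10462 genes tested in both tables, by Euclidean distance of log2(RPKM + 0.5) over the 10 libraries after each table was centred on its own DMSO mean. Nearest to Grhl3 were Cmss1 (distance 0.196), Phlda1 (0.356) and Lrp8 (0.403). Cmss1 had log2 fold changes of 0.49 with SB431542 and 2.36 with T-5224, next to 0.47 and 2.37 for Grhl3. Nearest to Sox9 were Mob3b (0.169), Nav1 (0.212) and Tpm1 (0.237). Mob3b had log2 fold changes of -0.54 with SB431542 and -1.78 with T-5224, next to -0.56 and -1.77 for Sox9. These distances describe the 10 libraries and carry no test.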

How the data were processed

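RNA from ASZ001 cells was sequenced from stranded mRNA libraries. The deposited values are RPKM that the authors computed with HOMER after alignment to mm9 by TopHat, as the submitters' processing notes and the study's methods state. Each inhibitor has its own table. Names turned into dates (22 and 23 rows) were dropped, and 0 columns of values were left out. Each inhibitor was compared with its own DMSO libraries with limma 3.58.1 (R 4.3.3) on log2(RPKM + 0.5), two-sided, using trended empirical Bayes variances, and p-values were adjusted by Benjamini-Hochberg over the 10842 and 10809 genes with a mean of at least 1 RPKM. The fit was tested on simulated data. The T-5224 table numbers its DMSO columns 1 and 2, and the labels number these libraries differently, so they carry no pairing. The members and gene lists were chosen with earlier results of these data known. Named were the 9 factors and, in each list and experiment, up to 4 passing genes with the largest changes and no overlap between groups. The 3 genes nearest to each of the 2 factors that changed most were named too, as were Rn45s, Gm16989 and Gm13584. Marker genes, Jag1, Sfn, Tgm5, Klf15 and the relatives higher with T-5224 were also named and fall outside that rule. The same holds for Krt10, Krt1, Lor, Ivl, Tgm1 and Casp14. Some genes that the rule selects are not reported here. Positions are from GENCODE for mm9 (NCBIM37), promoter windows from RefSeq GRCm38.p6. Reads per library came from the whole-read steps of low RPKM values. Alternatives were pseudocounts of 0.1 and 1, other limits on low values (none or 5 RPKM), median centring, quantile normalization, no trend, the fold limit, the replicate number as a block and each library left out. Counts per list without each library were added after seeing the data.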

Additional observations from a re-analysis of the deposited data

How the results depend on the processing

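Among the 9 factors, only the added fold limit ended a T-5224 call of a gene that could be tested, while the SB431542 calls of Sox9 and Ovol1 depended on single libraries. With a fold limit of 2 added, the factors higher and lower with SB431542 were 0 and 0 in place of 1 and 1, and those with T-5224 were 1 and 1 in place of 2 and 5. Over all genes the fold limit left 25 higher and 63 lower with SB431542 and 1121 and 1144 with T-5224. With quantile normalization or no mean-variance trend, 2 factors were higher with SB431542, since Grhl3 passed. With a limit of 5 RPKM, 1 factor was higher with T-5224, because Grhl3 was then not tested. Leaving out 1 library gave 0 to 3 factors higher and 0 to 2 lower with SB431542, and 300 to 2163 genes higher and 433 to 1900 lower over all genes, where the most were found without DMSO replicate 1. Without that library the changes of Klf5 and Tfap2a with SB431542 turned to 0.091 and 0.014, and over the libraries left out they ranged from -0.28 to 0.091 and from -0.23 to 0.014. Klf4 with T-5224 turned to -0.077 with quantile normalization, and ranged from -0.0082 without T-5224 replicate 1 to 0.045 without T-5224 replicate 2. With 1 library left in an arm of the T-5224 experiment, that library is assumed to vary like the other group. The cause of these changes was not tested.

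The replicate numbers shared by DMSO and SB431542 name no common culture, and same-numbered libraries did not deviate together (correlations of -0.148, 0.151 and -0.0949), so the numbers were not taken as pairs. With the replicate block, 572 genes were higher and 699 lower with SB431542, against 1107 and 1085 without it, and Sox9 (adjusted p = 0.0172) and Ovol1 (0.0489) still passed. For T-5224 no paired analysis was possible because the labels give its DMSO libraries other numbers. RPKM alone allow no count test, and Lhx2, at 3 to 23 reads in the T-5224 experiment, is limited by depth.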
